A study of Mus musculus with 34 samples.

Results

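The bone morphogenetic protein (BMP) pathway was followed here through 10 genes in irradiated mouse skin: the ligands Bmp2, Bmp4, Bmp6 and Bmp7, the secreted antagonists Nog and Grem1, the pseudoreceptor Bambi and the target genes Id1, Id2 and Id3. They were chosen by gene symbol, and each of the 10 had 1 row among the 47633 rows of both deposited tables, one for back skin and one for the footpad. Gene expression had been measured by RNA sequencing of total RNA in 34 samples, which the labels place in 17 groups of 2 samples. All animals were 8 to 10 weeks old.

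Back skin, with its hair in the growth phase, was taken from p53 knockout, Krt17 knockout and wild-type (WT) mice at 6 h and 24 h after 5 Gy of ionizing radiation and from unirradiated mice of the same genotypes, labelled 0 h. Footpad skin was taken from Krt17 knockout and WT mice at T3, T6 and T9 after 40 Gy and from unirradiated mice, labelled T0; the labels give these points no unit of time. Whether the knockouts were limited to a cell type, and the mouse strain, are not given in the sources used here. p53 is the transcription factor that responds to DNA damage, and Krt17 encodes a keratin of hair follicles and stressed epidermis. The question was how the level of each gene differed after irradiation and between genotypes and tissues.

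BMPs are secreted proteins of the TGF-beta superfamily. They bind pairs of receptor kinases, which phosphorylate Smad1, Smad5 and Smad9; these enter the nucleus with Smad4 and switch on target genes, among which the Id genes are the best known. Noggin and gremlin bind BMPs outside the cell, and Bambi resembles a receptor but lacks the kinase. In hair follicles BMP signalling holds stem cells at rest between growth phases and is needed for the differentiation of the hair shaft, while noggin from the dermal papilla locally opposes it.

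The deposited values are the authors' means over each group's 2 samples, in FPKM, fragments scaled to transcript length and to the size of the library, a scale on which genes of different length can be compared. With 1 mean a group there is no spread between replicates, so no difference below has a test, an error or a p-value. Whether the 2 samples came from separate animals is not stated. Differences are log2 ratios of (mean FPKM + 1) with the group named first on top, which understate the change of genes at low levels, and a gene was counted as different at 2-fold or more, a log2 ratio of 1 or more in size. A filter kept genes with 1 FPKM or more in at least 1 column of the tissue: 14972 genes and 10 of 10 members passed in back skin, 13740 genes and 9 of 10 members in the footpad, where Grem1 did not pass. The depth in reads is unknown.

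Column sums lay between 854202 and 1095024 FPKM. Krt17 itself stood between 14.7 and 29.9 FPKM in Krt17 knockout back skin, against 1358 to 1919 FPKM in WT back skin, and between 18.2 and 68.1 FPKM in Krt17 knockout footpads, against 92.6 to 835 FPKM in WT footpads. Trp53, which encodes p53, stood at 25.8, 18.0 and 28.8 FPKM in p53 knockout back skin at 0 h, 6 h and 24 h, against 43.8, 19.3 and 21.5 FPKM in WT back skin; the extent of the deletion is not given, so a value over the whole gene does not check that label. Back skin had hair shaft and inner root sheath keratins (summed 2509 to 8610 FPKM over 6 of 7 shaft markers and 9272 to 17555 FPKM over 5 of 5 sheath markers), whereas footpads had 0.188 to 17.6 FPKM and 3.85 to 62.9 FPKM of them. The palmoplantar pair Krt9 and Krt2 summed to 586 to 16246 FPKM in footpads, where Krt2 was listed at 0 and left out in 1 group, against 1.22 to 18.4 FPKM in back skin.

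Sequence is shown for the 3 of 5 members with a RefSeq promoter entry (GRCm38.p6) whose levels spanned a log2 range of 1 or more within a tissue, to let the start regions of Grem1, Id2 and Bmp6 be compared. Each window runs 5′ to 3′ on the strand of the gene and covers 250 bases before and 50 bases after the RefSeq start. Grem1 lies at chr2:113758599-113758898 on the minus strand, Id2 at chr12:25096043-25096342 on the minus strand and Bmp6 at chr13:38345466-38345765 on the plus strand. The Id2 and Bmp6 windows lie wholly inside the GENCODE M21 gene spans given below, so their RefSeq starts are not the outermost annotated ones. The Grem1 window crosses the 5′ end of its span. Capitals mark 2 strings of letters known from BMP Smad binding: GGCGCC, which reads the same on both strands, and CAGAC, with GTCTG on the other strand. In these 3 windows no GGCGCC overlapped a CAGAC.
Grem1: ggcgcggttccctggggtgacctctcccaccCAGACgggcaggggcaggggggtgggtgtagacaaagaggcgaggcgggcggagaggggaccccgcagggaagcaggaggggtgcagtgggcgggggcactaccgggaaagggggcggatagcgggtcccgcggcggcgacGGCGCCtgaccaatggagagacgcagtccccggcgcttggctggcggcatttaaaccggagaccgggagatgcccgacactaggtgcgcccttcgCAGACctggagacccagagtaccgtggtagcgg
Id2: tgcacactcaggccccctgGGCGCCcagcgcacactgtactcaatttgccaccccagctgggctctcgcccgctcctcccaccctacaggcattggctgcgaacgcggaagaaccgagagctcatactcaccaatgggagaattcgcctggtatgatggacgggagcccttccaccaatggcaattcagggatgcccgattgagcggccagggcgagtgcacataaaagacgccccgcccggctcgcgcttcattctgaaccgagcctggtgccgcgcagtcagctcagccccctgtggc
Bmp6: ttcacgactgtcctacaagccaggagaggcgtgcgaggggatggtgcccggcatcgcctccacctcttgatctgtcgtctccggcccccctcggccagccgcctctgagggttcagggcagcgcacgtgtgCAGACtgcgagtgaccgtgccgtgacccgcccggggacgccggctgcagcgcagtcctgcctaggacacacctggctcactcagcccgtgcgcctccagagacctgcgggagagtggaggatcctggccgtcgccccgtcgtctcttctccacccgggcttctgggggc

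The Id2 window holds GGCGCC at 231 bases before the start and no CAGAC on either strand. In the Grem1 window GGCGCC begins 78 bases before the start, and CAGAC begins 219 bases before the start and again 17 bases after it. The Bmp6 window holds CAGAC at 119 bases before the start and no GGCGCC. Of the other members with an entry, Id3 holds the CAGAC string in 1 orientation or the other at 167 and 68 bases before its start, and Bmp4 holds neither string. Over all 32851 RefSeq promoter windows of this length, 11.9% hold GGCGCC and 49.6% hold CAGAC or GTCTG, so a match in 2 and 3 of 5 members is a description of letters and not of a bound site.

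In back skin, of 60 values (10 members in 6 comparisons of irradiated with unirradiated skin of the same genotype), 1 reached 2-fold: Grem1 in p53 knockout skin at 6 h, a log2 ratio of 1.02. With columns rescaled by their median ratios it was 0.98 and short of 2-fold. Over all genes that passed the filter, 3.14% at 6 h and 1.97% at 24 h were at least 2-fold different in p53 knockout skin, 2.71% and 2.77% in Krt17 knockout skin, and 4.96% and 5.55% in WT skin, so the members' count does not set them apart from other genes. Comparing 24 h with 6 h, 3.22% of genes were 2-fold different in p53 knockout, 3.15% in Krt17 knockout and 5.44% in WT skin, and again Grem1 in p53 knockout skin, at −1.03, was the 1 member value of 30 past it. The members' median log2 ratio at 6 h was 0.04 in p53 knockout, 0.19 in Krt17 knockout and −0.02 in WT skin, beside medians over all genes of 0.02, −0.04 and −0.15; at 24 h it was 0.05, 0.03 and −0.03, beside 0.04, −0.09 and −0.20. The 6 h and 24 h comparisons of a genotype share its 0 h group. The members' median absolute log2 ratio was below that of all genes in 12 of 15 back skin comparisons and in 3 of 14 footpad comparisons. This count is on the columns as deposited, where the medians over all genes in WT back skin lay away from 0. It was not repeated on rescaled columns.

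**Figure D1:**
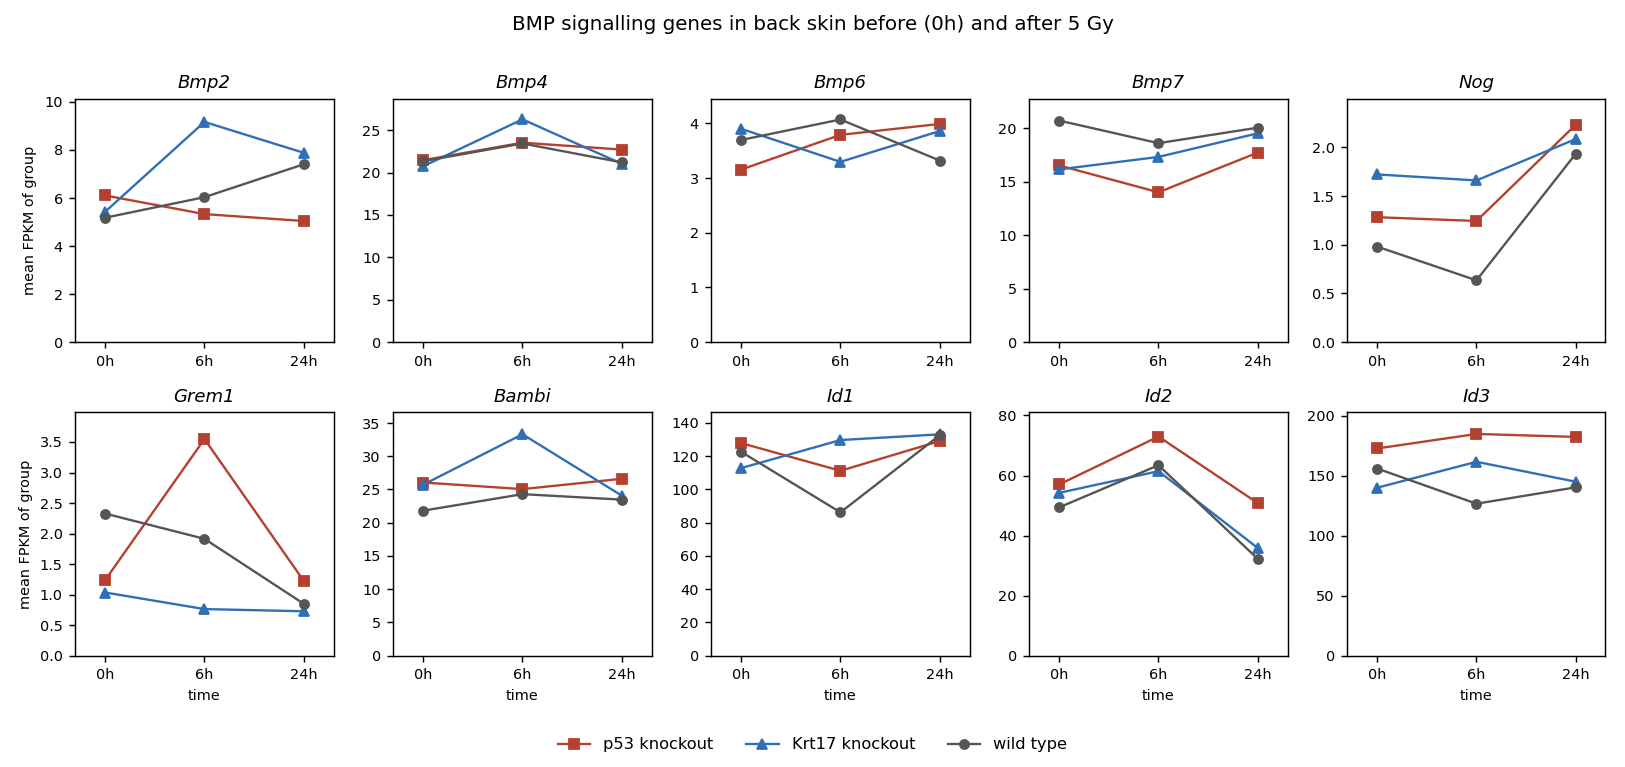
Mean FPKM of the 10 BMP genes in back skin at 0 h, 6 h and 24 h (1 panel a gene; lines join the deposited means of 2 samples for p53 knockout, Krt17 knockout and WT skin, with no error available). Grem1 stands at 3.55 FPKM in p53 knockout skin at 6 h, and Id2 peaks at 6 h in all 3 genotypes.

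Grem1 (chromosome 2, 113746164 to 113758646, minus strand in GENCODE M21, GRCm38) encodes gremlin, which binds BMP2, BMP4 and BMP7. It stood at 1.24, 3.55 and 1.22 FPKM in p53 knockout skin at 0 h, 6 h and 24 h. In Krt17 knockout skin it stood at 1.03, 0.762 and 0.726 FPKM, and in WT skin at 2.33, 1.91 and 0.849 FPKM. The p53 knockout skin at 6 h was thus the highest of the 9 groups, while the lowest 3 were both irradiated Krt17 knockout groups and WT skin at 24 h. At 6 h the p53 knockout log2 ratio of 1.02 exceeded in size that of 97.0% of genes in that comparison, and in WT skin the log2 ratio was −0.19 at 6 h and −0.85 at 24 h. With 0.1 FPKM added, the WT ratio at 24 h was −1.35 over 0 h and −1.08 over 6 h. At that setting 1773 of 14968 genes passed 2-fold over 0 h and 1820 of 14967 over 6 h. The 6 h response in p53 knockout skin minus that in WT skin was 1.21 on the log2 scale; 5.59% of genes had a difference of responses of 1 or more in that pair. These are low levels, and the 6 markers of fibroblasts, a known source of gremlin, also varied: they summed to 978, 1551 and 1056 FPKM in p53 knockout skin, 1593, 1116 and 778 FPKM in Krt17 knockout skin, and 1995, 1248 and 649.9 FPKM in WT skin, with all 6 above 0 in each group. The 7 dermal papilla markers summed to 47.1, 36.4 and 52.7 FPKM in p53 knockout skin. They summed to 44.4, 31.0 and 53.4 FPKM in Krt17 knockout skin and 49.0, 29.4 and 35.9 FPKM in WT skin, lowest at 6 h in each genotype. In bulk tissue fewer cells of a type and less RNA per cell cannot be told apart, and the part of either set of markers in the Grem1 values was not tested.

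Nog (chromosome 11, 89300638 to 89302332, minus strand) encodes noggin, which blocks BMP ligands from their receptors. Its level was 1.28, 1.24 and 2.23 FPKM in p53 knockout skin, 1.72, 1.66 and 2.09 FPKM in Krt17 knockout skin, and 0.982, 0.635 and 1.94 FPKM in WT skin at 0 h, 6 h and 24 h. The 24 h group was the highest of its genotype in all 3 genotypes, with log2 ratios over 0 h of 0.50, 0.18 and 0.57 in p53 knockout, Krt17 knockout and WT skin. Over 6 h the ratios at 24 h were 0.53, 0.21 and 0.84. None reached 2-fold with 1 FPKM added, which weighs heavily at these levels. With 0.1 FPKM added the WT ratio of 24 h over 6 h was 1.47, where 1820 of 14967 genes passed 2-fold.

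Id2 (chromosome 12, 25093799 to 25097140, minus strand) encodes an inhibitor of basic helix-loop-helix transcription factors, as do Id1 and Id3. At 0 h, 6 h and 24 h it stood at 57.0, 73.0 and 50.8 FPKM in p53 knockout skin, 54.2, 61.4 and 35.9 FPKM in Krt17 knockout skin, and 49.4, 63.4 and 32.2 FPKM in WT skin. In each genotype the 6 h group was the highest and the 24 h group the lowest. The log2 ratio to 0 h at 6 h was 0.35, 0.18 and 0.35 in p53 knockout, Krt17 knockout and WT skin, and at 24 h it was −0.16, −0.58 and −0.60. At 24 h over 6 h Id2 had log2 ratios of −0.51, −0.76 and −0.95. In linear terms its highest group had 2.26 times the level of its lowest, the widest span among the 7 members that reached 5 FPKM in back skin. Beside this, the 6 proliferation markers summed to 241, 210.3 and 269.7 FPKM in p53 knockout skin, 199, 120.1 and 94.0 FPKM in Krt17 knockout skin, and 193, 92.0 and 78.0 FPKM in WT skin; their part in the Id2 values was not tested.

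Id1 (chromosome 2, 152736251 to 152737410, plus strand) was, with Id3, the most abundant member. It stood at 128, 111 and 129 FPKM in p53 knockout skin, 113, 129.7 and 133 FPKM in Krt17 knockout skin, and 123, 86.2 and 133 FPKM in WT skin. WT skin at 6 h was the lowest group, at a log2 ratio of −0.50 to 0 h, and the 24 h over 6 h ratio there was 0.62. In Krt17 knockout skin the 6 h ratio was 0.20, so that the response minus that of WT skin was 0.70. In size, 89.1% of genes had a smaller difference of responses in that pair. Id3 (chromosome 4, 136143497 to 136145755, plus strand) stood at 173, 185 and 182 FPKM in p53 knockout skin, 139.9, 162 and 145 FPKM in Krt17 knockout skin, and 156, 127 and 140.2 FPKM in WT skin. As deposited, its 3 p53 knockout groups were the highest of the 9, a ranking that leans on the scaling of the columns. Rescaled, the p53 knockout over WT log2 ratio of Id3 at 24 h was 0.08, against 0.38 as deposited. Like Id1, Id3 was lowest in WT skin at 6 h, at −0.30 to 0 h.

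Among the ligands, Bmp2 (chromosome 2, 133552159 to 133562885, plus strand), known from the hair matrix and shaft precursors, had the widest span. It stood at 6.11, 5.33 and 5.04 FPKM in p53 knockout skin, 5.43, 9.17 and 7.88 FPKM in Krt17 knockout skin, and 5.18, 6.04 and 7.40 FPKM in WT skin at 0 h, 6 h and 24 h. The irradiated groups lay above 0 h in Krt17 knockout and WT skin and below it in p53 knockout skin. At 24 h the log2 ratios were −0.23, 0.47 and 0.44 in p53 knockout, Krt17 knockout and WT skin, and the p53 knockout response minus that of WT was −0.68. In size, 80.0% of genes had a smaller difference of responses in that pair. Hair matrix markers, all 7 above 0 in every back skin group, summed to 273, 265 and 277 FPKM in p53 knockout skin, 272, 337 and 228 FPKM in Krt17 knockout skin, and 343, 273 and 227 FPKM in WT skin; their part in the Bmp2 values was not tested.

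The other 3 ligands held narrow ranges in back skin. Bmp4 (chromosome 14, 46383520 to 46390669, minus strand), a ligand of the dermal papilla, lay between 20.7 and 26.3 FPKM, with the highest group 1.27 times the lowest. Bmp6 (chromosome 13, 38345107 to 38500302, plus strand), a ligand known from the resting follicle bulge, lay between 3.15 and 4.07 FPKM, a 1.29-fold span. Bmp7 (chromosome 2, 172868012 to 172940321, minus strand) lay between 14.0 and 20.7 FPKM, a 1.48-fold span.

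Bambi likewise held a narrow range in back skin and lay between 21.8 and 33.3 FPKM, highest in Krt17 knockout skin at 6 h. That group was also the highest for Bmp2 and Bmp4. Its log2 ratio to 0 h was 0.36 for Bambi, 0.33 for Bmp4 and 0.66 for Bmp2. Across the 9 back skin groups the log2 levels of Bmp4 and Bambi had a Pearson r of 0.75. Those of Nog and Id1 had an r of 0.78. These values were picked as the largest in size among all pairs of members. They are descriptions over 9 means that share libraries and their normalization, with no test.

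Between genotypes in back skin no member reached 2-fold at any time with 1 FPKM added. With 0.1 FPKM added 3 low-level values did, all for Krt17 knockout over WT: Grem1 at −1.10 at 0 h, and Nog at 1.26 and Grem1 at −1.22 at 6 h. With 0.1 FPKM added, 640 of 14967 genes passed 2-fold in that comparison at 0 h and 912 of 14969 at 6 h. With 1 FPKM added the share of all genes past 2-fold for p53 knockout over WT was 1.76% at 0 h, 5.17% at 6 h and 6.08% at 24 h. For Krt17 knockout over WT it was 1.60%, 2.12% and 2.15%. The widest p53 knockout ratios were −0.57 for Grem1 at 0 h, 0.64 for Grem1 and 0.54 for Id3 at 6 h, and 0.64 for Id2 and −0.48 for Bmp2 at 24 h. This order was lost on rescaling: at 6 h Bmp7 was then the widest at −0.60, with Grem1 at 0.48 and Id3 at 0.32, and at 24 h Bmp2 at −0.73 and Bmp7 at −0.45 exceeded Id2 at 0.35. Krt17 knockout skin had −0.71 for Grem1 and 0.46 for Nog at 0 h, and −0.73 for Grem1, 0.70 for Nog, 0.58 for Id1 and 0.53 for Bmp2 at 6 h. At 24 h its member values all lay within 0.17 of 0. The members' median absolute log2 ratio was 0.39 for Krt17 knockout over WT at 6 h, against 0.19 over all genes, and 0.06 at 24 h, against 0.15.

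Over all genes the WT comparisons were not centred at 0. Rescaling each column by its median ratio to the mean column moved the all-gene median by 0.17 for WT skin at 6 h, 0.21 for WT at 24 h, −0.18 for p53 knockout over WT at 6 h and −0.24 at 24 h. Relative to that shift the WT log2 ratio of Id2 at 24 h was −0.34 and those of Id1 and Id3 at 6 h were −0.29 and −0.08. Rescaled, the share of 2-fold genes that were higher was 58.6% for WT at 6 h (36.0% as deposited), 66.0% for WT at 24 h (38.5%), 69.9% for Krt17 knockout at 24 h (59.0%), 58.9% for p53 knockout over WT at 6 h (78.4%) and 43.3% at 24 h (69.6%). Of 276 member values, 27 changed sign, each within 0.21 of 0 as deposited. The differences of responses between genotypes are on the columns as deposited, and their shares of genes were not recomputed. Rescaled, Id1 at 6 h was 0.26 in Krt17 knockout and −0.29 in WT skin. Grem1 at 6 h was 0.98 in p53 knockout and −0.04 in WT skin, and Bmp2 at 24 h was −0.27 and 0.68.

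In the footpad after 40 Gy none of 54 member values, 9 genes in 6 comparisons with T0, reached 2-fold with 1 FPKM added. With 0.1 FPKM added 4 did: Bmp6 at T6 in Krt17 knockout footpads at 1.17, Bmp6 at T6 and T9 in WT footpads at 1.58 and 1.68, and Nog at T6 in WT footpads at 1.10. With 0.1 FPKM added, 1523 of 13734 genes passed 2-fold at T6 in Krt17 knockout footpads. In WT footpads 1192 of 13733 passed at T6 and 1296 of 13733 at T9. With 1 FPKM added the share of all genes past 2-fold was 3.12%, 6.23% and 3.95% at T3, T6 and T9 in Krt17 knockout footpads. In WT footpads it was 3.10%, 3.81% and 4.78%. T6 over T3 and T9 over T6 had 2.87% and 2.93% in Krt17 knockout footpads, and 2.88% and 2.71% in WT footpads, with no member among them. With 0.1 FPKM added, Bmp6 at T6 over T3 in Krt17 knockout footpads was 1.23, where 924 of 13734 genes passed 2-fold. Bmp4 at T9 over T6 in WT footpads was then −1.02, where 884 of 13734 genes passed. Members' medians at T3, T6 and T9 were −0.04, −0.24 and 0.05 in Krt17 knockout footpads, beside 0.06, 0.00 and 0.09 for all genes, and 0.07, 0.17 and −0.04 in WT footpads, beside 0.04, 0.04 and 0.02.

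**Figure D2:**
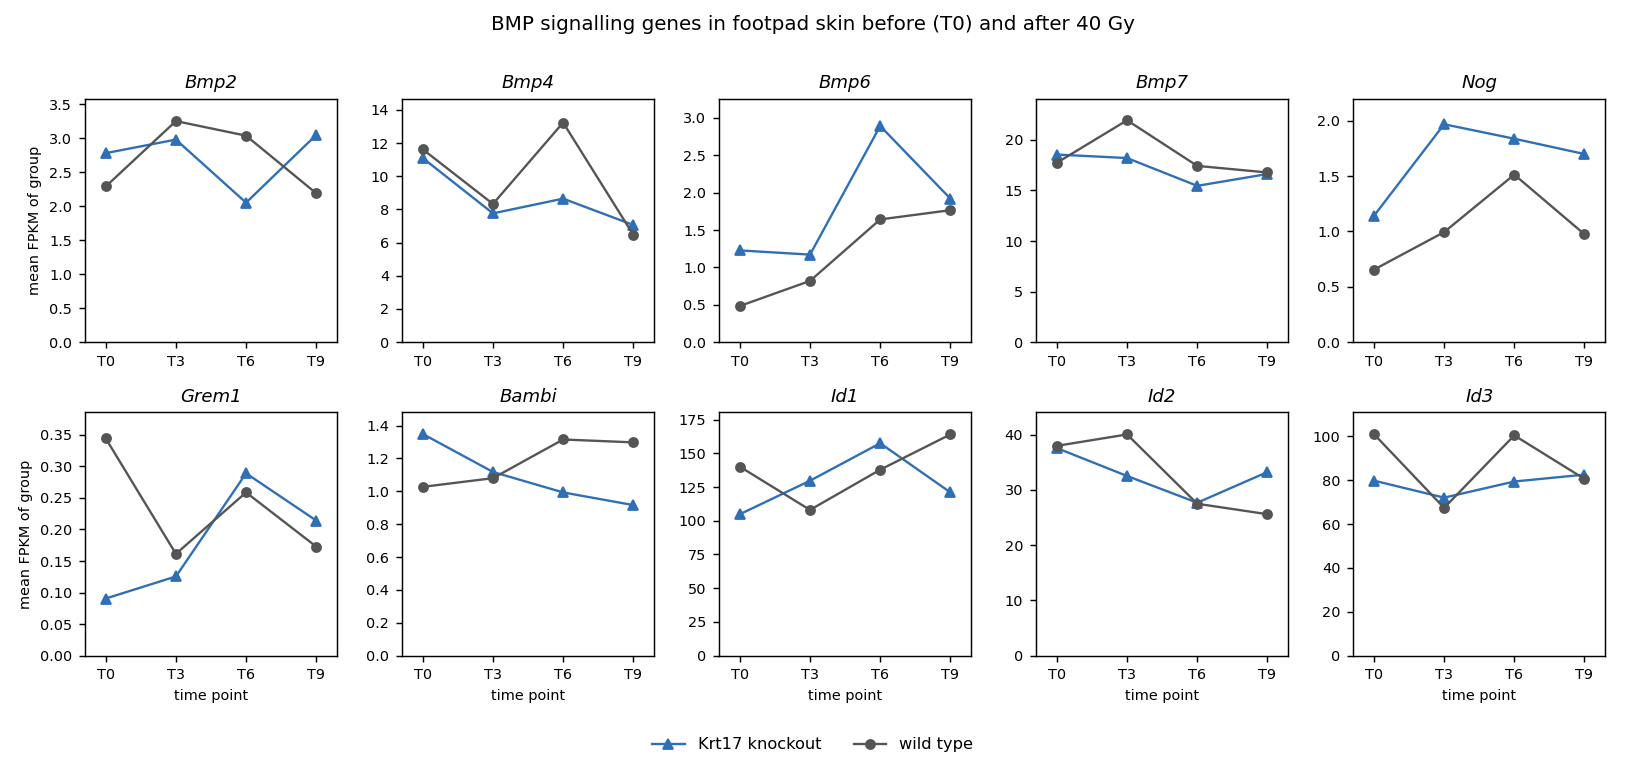
Mean FPKM of the 10 BMP genes in footpad skin at T0, T3, T6 and T9 (1 panel a gene; lines join the deposited means of 2 samples for Krt17 knockout and WT footpads, with no error available). Bmp6 in WT footpads stands at 0.484 FPKM at T0 and 1.77 FPKM at T9, and Bmp4 in WT footpads is highest at T6, at 13.2 FPKM.

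Bmp6 had the widest footpad span of the members that passed, with 5.98 times as much in its highest group as in its lowest. It stood at 1.23, 1.17, 2.89 and 1.92 FPKM in Krt17 knockout footpads at T0, T3, T6 and T9, and at 0.484, 0.819, 1.64 and 1.77 FPKM in WT footpads. In WT footpads each irradiated group was above T0, with log2 ratios of 0.29, 0.83 and 0.90, and in Krt17 knockout footpads the ratios were −0.04, 0.81 and 0.39. The T6 over T3 ratio was 0.84 in Krt17 knockout footpads. These levels are near the 1 FPKM added before the logarithm, which compresses the ratios.

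Bmp4 was lower than T0 in 5 of the 6 irradiated footpad groups. Its level was 11.1, 7.76, 8.65 and 7.06 FPKM in Krt17 knockout footpads and 11.6, 8.33, 13.2 and 6.47 FPKM in WT footpads. The log2 ratios to T0 were −0.47, −0.33 and −0.59 in Krt17 knockout footpads and −0.44, 0.17 and −0.76 in WT footpads. The WT group at T6 stood apart from its neighbours in time, with a ratio of 0.61 over T3 and of −0.93 for T9 over T6. The 6 fibroblast markers, all above 0, summed to 317, 347, 473 and 316 FPKM in Krt17 knockout footpads. In WT footpads they summed to 338, 310.3, 709 and 401 FPKM, and were thus also highest in the WT group at T6. Within WT footpads the adipocyte and endothelial marker sums were highest at T6 too, at 48.2 and 94.9 FPKM. The 7 dermal papilla markers summed to 25.0, 33.0, 159 and 72.9 FPKM in Krt17 knockout footpads. In WT footpads they summed to 25.6, 37.7, 70.9 and 117 FPKM, highest at T9. Only 3 of them reached 1 FPKM in each group. The part of any of these markers in the Bmp4 values was not tested.

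The Id genes followed different courses in the footpad. Id1 stood at 105, 129.7, 158 and 121 FPKM in Krt17 knockout footpads and at 140.1, 108, 138 and 164 FPKM in WT footpads. Id2 stood at 37.6, 32.5, 27.7 and 33.2 FPKM in Krt17 knockout footpads and at 38.0, 40.0, 27.5 and 25.6 FPKM in WT footpads. At T6 the Id2 log2 ratio to T0 was −0.43 in Krt17 knockout and −0.45 in WT footpads, and at T9 −0.17 and −0.55. Id1 at T6 was 0.58 in Krt17 knockout and −0.02 in WT footpads. Id3 stood at 79.8, 72.1, 79.4 and 82.6 FPKM in Krt17 knockout footpads and at 101, 67.4, 100.5 and 80.6 FPKM in WT footpads, lowest in the WT group at T3, at −0.58. Across the 8 footpad groups the log2 levels of Id1 and Id2 had an r of −0.81. Those of Bmp2 and Id1 had an r of −0.77, and those of Bmp6 and Id2 an r of −0.76. Again these are descriptions, picked as the largest in size among all pairs of members.

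The remaining members were low or level in the footpad. Bmp7 was the most abundant ligand and lay between 15.5 and 21.9 FPKM, and Bmp2 lay between 2.05 and 3.26 FPKM. Nog stood at 1.14, 1.97, 1.84 and 1.70 FPKM in Krt17 knockout footpads and at 0.655, 0.994, 1.51 and 0.975 FPKM in WT footpads, so that each irradiated group was above T0 of its genotype and each Krt17 knockout group above the WT group at the same point. Grem1 lay between 0.0905 and 0.344 FPKM and Bambi between 0.916 and 1.35 FPKM.

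Krt17 knockout over WT footpads had no member past 2-fold with 1 FPKM added, where 1.42% of all genes were at T0, 2.37% at T3, 2.67% at T6 and 2.26% at T9. With 0.1 FPKM added Bmp6 at T0 was 1.18, where 538 of 13735 genes passed 2-fold. With 1 FPKM added the widest values were 0.59 for Bmp6 and −0.41 for Id1 at T0, 0.57 for Nog at T3, 0.56 for Bmp6 and −0.56 for Bmp4 at T6, and 0.45 for Nog and −0.43 for Id1 at T9. The response of Krt17 knockout minus that of WT footpads was 0.68 for Id1 at T3, 0.61 for Id1 and −0.60 for Bmp2 at T6, and −0.51 for Bmp6 at T9. In the same order, 91.7%, 89.0%, 88.9% and 84.9% of genes had a difference smaller in size.

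**Figure D3:**
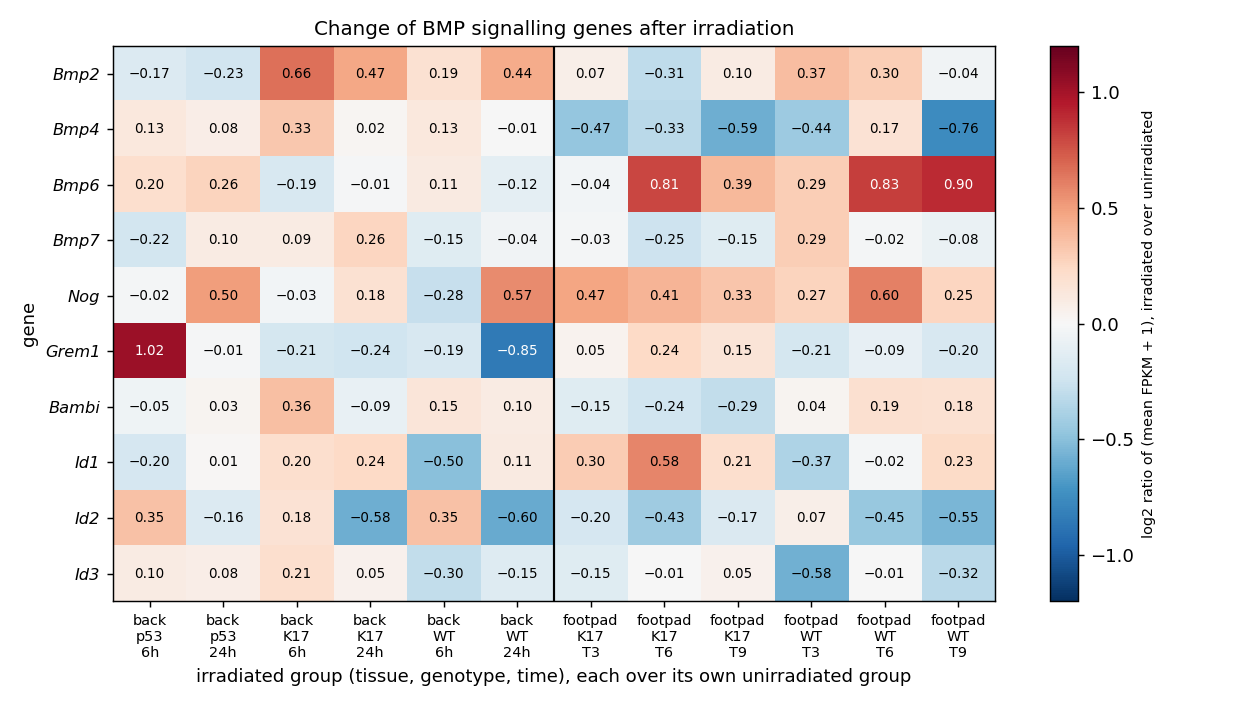
Log2 ratio of (mean FPKM + 1) in irradiated over unirradiated skin of the same genotype, for each BMP gene in 6 back skin and 6 footpad comparisons (columns marked p53 and K17 are the p53 and Krt17 knockouts). The footpad values of Grem1 are drawn although its levels there did not pass the filter. Over both tissues 1 value, Grem1 in p53 knockout skin at 6 h (1.02), reaches 2-fold.

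Bambi (chromosome 18, 3507923 to 3516404, plus strand), the kinase-lacking decoy of BMP and TGF-beta receptors, stood at 21.8 FPKM in unirradiated WT back skin, against 1.03 FPKM in WT footpads, a 21.2-fold difference. In Krt17 knockout mice it stood at 25.7 FPKM in back skin, against 1.35 FPKM in footpads, a 19.1-fold difference. Bmp6 was 7.64-fold, Grem1 6.76-fold, Bmp2 2.26-fold, Bmp4 1.84-fold and Id3 1.54-fold higher in unirradiated WT back skin than in WT footpads. On the log2 scale with 1 FPKM added, 3 of 10 members were at least 2-fold higher in back skin (Bambi 3.49, Bmp6 1.66 and Grem1 1.31) and none was 2-fold lower, where 23.2% of all genes were 2-fold different in either direction. The members' median was 0.72, against 0.41 over all genes.

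On the columns as deposited, all 9 back skin groups lay above all 8 footpad groups for 6 of 10 members: Bmp2, Bmp4, Bmp6, Grem1, Bambi and Id3. The ranges of the tissues failed to overlap for 30.8% of all genes. Neither comparison of ranges was repeated on rescaled columns, and narrow separations may rest on the scaling. With the columns of both tissues rescaled together, the unirradiated WT log2 ratio of Bambi was 3.07, against 3.49 as deposited. In that setting 3 of 10 members were still at least 2-fold higher in back skin. For Bmp7, Nog, Id1 and Id2 the ranges overlapped. The tissues also differ in dose and times, the 2 tables may have been normalized separately, and hair matrix markers summed to 227 to 343 FPKM in back skin, against 19.7 to 37.0 FPKM in footpads, where Shh was listed at 0 in 3 groups. The part of follicle content in these differences was not tested.

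**Figure D4:**
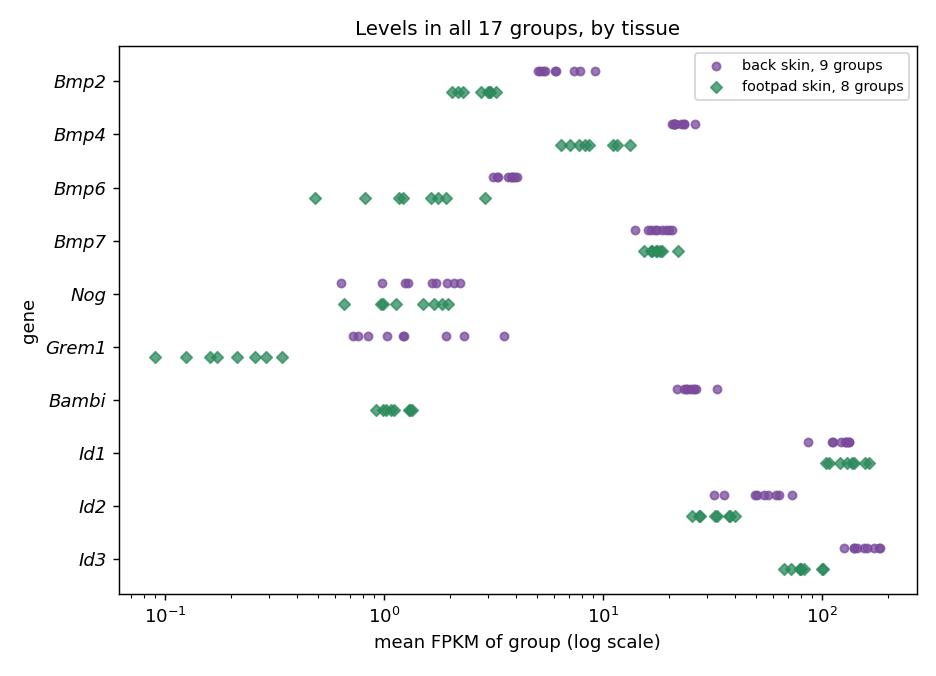
Mean FPKM (log axis) of each BMP gene in the 9 back skin groups and the 8 footpad groups, 1 point a group. The points of the tissues do not overlap for Bmp2, Bmp4, Bmp6, Grem1, Bambi and Id3, and Bambi is furthest apart, with 21.8 to 33.3 FPKM in back skin and 0.916 to 1.35 FPKM in footpads.

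Ranked by level in unirradiated WT back skin, the members ran Id3, Id1, Id2, Bambi, Bmp4, Bmp7, Bmp2, Bmp6, Grem1 and Nog; Bambi, Bmp4 and Bmp7, at 21.8, 21.3 and 20.7 FPKM, were close neighbours. In unirradiated WT footpads the order was Id1, Id3, Id2, Bmp7, Bmp4, Bmp2, Bambi, Nog, Bmp6 and Grem1. Without a spread over samples it cannot be said which neighbours differ.

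The wider pathway was read from a list of 55 genes, 45 of them not members. Of these 45, 32 passed the filter in back skin and 28 in the footpad. With the members counted in, among the ligands 5 of 13 passed in either tissue, of the receptors and co-receptors 9 of 11 in back skin and 8 in the footpad, of the Smads and their regulators 8 of 9 in both, of the antagonists 11 of 13 and 8, and of the responsive transcription factors 9 of 9 and 8. Only 10 of the 11 receptors and co-receptors had a row that could be used. Of the 32 in back skin, 1 was at least 2-fold lower at 6 h in each of p53 knockout, Krt17 knockout and WT skin. At 24 h none was lower in p53 knockout, 1 in Krt17 knockout and 2 in WT skin, and none was 2-fold higher at either time. Over all genes 3.14%, 2.71% and 4.96% were 2-fold different at 6 h and 1.97%, 2.77% and 5.55% at 24 h in p53 knockout, Krt17 knockout and WT skin, so these counts do not set the list apart. Those with 5 FPKM or more were Id4, Sostdc1 and Msx1.

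Sostdc1, an antagonist of BMP and Wnt signalling in skin appendages, stood at 34.1, 20.8 and 28.1 FPKM in p53 knockout skin, 39.4, 13.4 and 25.4 FPKM in Krt17 knockout skin, and 42.1, 19.2 and 17.5 FPKM in WT skin at 0 h, 6 h and 24 h. All irradiated groups lay below 0 h of their genotype. The log2 ratios at 6 h were −0.69, −1.49 and −1.10 in p53 knockout, Krt17 knockout and WT skin, and at 24 h −0.27, −0.61 and −1.22. Rescaled, the WT values were −0.89 and −0.96, short of 2-fold.

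Id4, the remaining Id gene, stood at 46.0, 21.6 and 42.0 FPKM in p53 knockout skin, 33.4, 20.3 and 35.2 FPKM in Krt17 knockout skin, and 41.7, 25.6 and 26.1 FPKM in WT skin. Its 6 h level was the lowest of each genotype, where Id2 was highest at 6 h. The log2 ratios at 6 h were −1.06, −0.69 and −0.68, and at 24 h −0.13, 0.07 and −0.66, in p53 knockout, Krt17 knockout and WT skin. Msx1, a homeobox gene of the hair matrix, stood at 2.31 FPKM in Krt17 knockout skin and 2.05 FPKM in WT skin at 24 h, against 9.26 and 12.6 FPKM at 0 h, and at 11.4 FPKM in p53 knockout skin at 24 h, against 11.8 FPKM at 0 h. Its p53 knockout over WT log2 ratio at 24 h was 2.03.

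In the footpad 28 other pathway genes passed. None was 2-fold different at T3. Comparisons with T0 of a genotype share that group. At T6, 2 were higher and 1 lower in Krt17 knockout footpads, and 2 were higher in WT footpads; at T9, none was different in Krt17 knockout footpads, and 2 were higher and 1 lower in WT footpads. Over all genes 6.23% and 3.81% were 2-fold different at T6 and 3.95% and 4.78% at T9 in Krt17 knockout and WT footpads, and nothing particular to the list is read from its counts. Eng, a co-receptor of endothelial cells, stood at 7.49, 10.2, 19.0 and 8.40 FPKM in Krt17 knockout footpads and at 5.77, 5.29, 13.4 and 12.7 FPKM in WT footpads. Its log2 ratio was 1.24 at T6 and 0.15 at T9 in Krt17 knockout footpads, and 1.09 and 1.01 in WT footpads. The 8 endothelial markers summed to 83.4, 83.9, 95.2 and 60.9 FPKM in Krt17 knockout footpads and to 69.3, 50.6, 94.9 and 61.3 FPKM in WT footpads, with all 8 above 0; their part in the Eng values was not tested.

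Fst, which encodes the activin and BMP binding protein follistatin, stood at 1.90, 3.79, 7.75 and 3.87 FPKM in Krt17 knockout footpads and at 1.71, 3.18, 4.51 and 6.13 FPKM in WT footpads. All irradiated groups lay above T0, with log2 ratios of 0.73, 1.59 and 0.75 in Krt17 knockout footpads and 0.63, 1.02 and 1.40 in WT footpads. Gata3, a transcription factor of epidermis and the follicle's inner sheath, had 14.9, 10.8, 5.86 and 12.7 FPKM in Krt17 knockout footpads and at 17.8, 12.4, 10.5 and 7.66 FPKM in WT footpads. Its lowest group was T6 in Krt17 knockout footpads, at a log2 ratio of −1.21, and T9 in WT footpads, at −1.12. After rescaling, Fst at T6 and Eng at T9 in WT footpads, at 0.97 and 0.98, fell short of 2-fold.

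**Figure D5:**
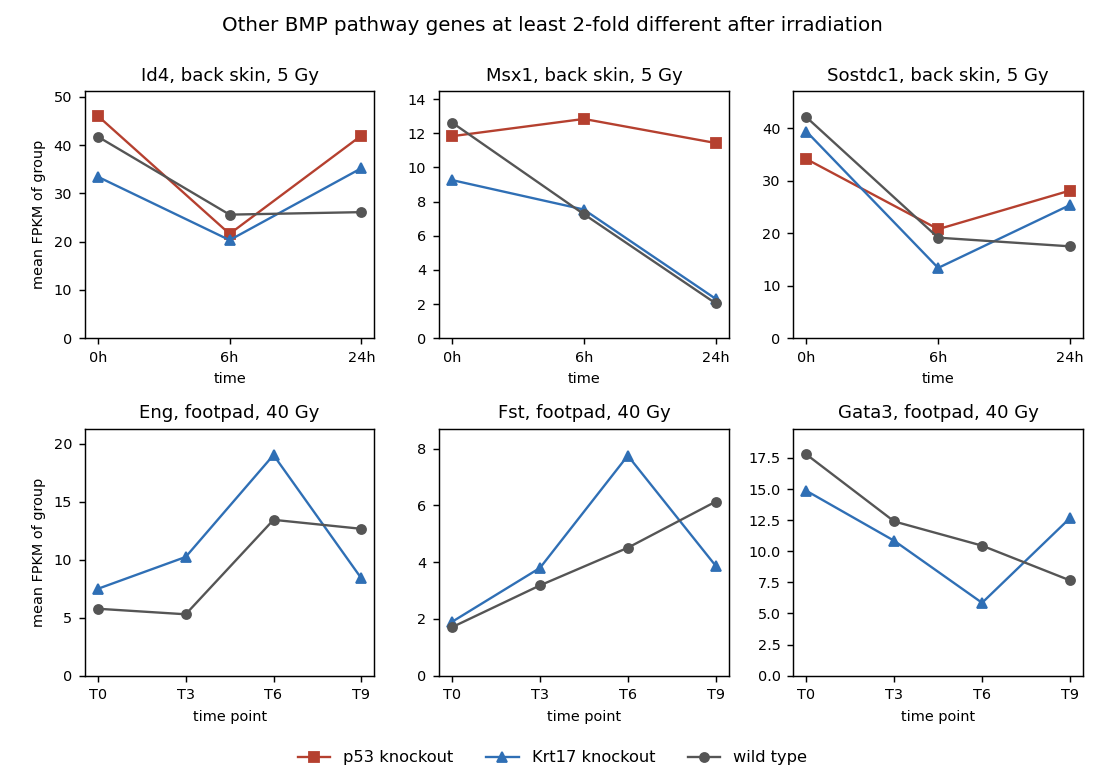
Mean FPKM of the 6 other pathway genes named by rule: Sostdc1, Id4 and Msx1 in back skin at 0 h, 6 h and 24 h, and Eng, Fst and Gata3 in footpads at T0, T3, T6 and T9 (lines join the deposited means of 2 samples, with no error available). Sostdc1 lies below 0 h in all 6 irradiated groups, and Fst above T0 in all 6.

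For members with a log2 range of 1 or more, the genes with the most similar pattern were taken by Pearson r of log2(FPKM + 1) over the columns of a tissue, among genes with 5 FPKM or more in at least 1 column. Over 9 back skin columns and 10651 genes, Id2 was most like Igbp1 (0.989), Gucd1 (0.984) and Zdhhc4 (0.984), and Grem1 was most like Bhlhe40 (0.943), Zfp1 (0.938) and Ogfr (0.937). Over 8 footpad columns and 9086 genes, Bmp6 was most like Shf (0.979), Cald1 (0.964) and Tefm (0.961). These r values are the highest of many over few means and describe these columns.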

How the data were processed

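The deposited values are FPKM, which the authors averaged over the 2 samples of each group before deposit; the kind of mean is not given in the sources used here. TopHat2 2.1.0, Cufflinks 2.2.1 and the mouse build mm10 are named in the submitters' processing notes; annotation release and strandedness are not given in the sources used here. With group means in place of single samples, no linear model could be fitted, and ratios were described without a test. From the deposited FPKM, log2 ratios of (mean FPKM + 1) were computed in 29 comparisons with Python 3.11.15 and pandas 2.3.3, for genes with 1 FPKM or more in at least 1 column of the tissue. The 116 symbols with more than 1 row were left out. A value of 0 where the median over the other columns was 5 FPKM or more was treated as missing (19 values in back skin, 32 in the footpad). The script was tested on simulated data. The members and gene lists were chosen with earlier results of these data known. Other pathway genes were named when they had 5 FPKM or more in the tissue and a 2-fold difference after irradiation. Another pseudocount, other filters, rescaled columns and listed zeros kept as 0 were tried.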

Additional observations from a re-analysis of the deposited data

How the results depend on the processing

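No paired analysis was possible because the deposited tables hold 1 mean per group and no single samples; leaving out each replicate was not run for the same reason, so how far any value rests on 1 sample is unknown, as is the depth. With a pseudocount of 0.1 FPKM in place of 1, members at low levels passed 2-fold where none had in 10 comparisons. These were 1 (Grem1) for WT back skin at 24 h over 0 h, 2 (Nog and Grem1) at 24 h over 6 h, 1 (Grem1) for Krt17 knockout over WT at 0 h and 2 (Nog and Grem1) at 6 h; in the footpad 2 (Bmp6 and Nog) for WT at T6 and 1 (Bmp6) at T9 over T0, 1 (Bmp4) for WT at T9 over T6, 1 for Krt17 knockout at T6 over T0 and 1 over T3, and 1 (Bmp6) for Krt17 knockout over WT at T0. With 0.1 FPKM added, 4 of 10 members in place of 3 were 2-fold higher in back skin than in the footpad. Differences of responses of 1 or more numbered 3 in place of 1. For neither count was the share of all genes computed at that setting, so no result about the members is read from them. With a filter of 5 FPKM Grem1 was not tested, so members past 2-fold numbered 0 for p53 knockout skin at 6 h over 0 h and at 24 h over 6 h, 1 (Bambi) in place of 3 between tissues, and 0 among differences of responses. After rescaling, Grem1 at 6 h in p53 knockout skin was 0.98, and the count there was 0. Over all genes the counts past 2-fold were 538 to 1852 with a pseudocount of 0.1 and 107 to 697 with the filter of 5 FPKM, against 195 to 910. Without a filter, or with listed zeros kept as 0 (an alternative chosen after seeing the data), no member count changed, and no called value reversed under any alternative run.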
